A study of Homo sapiens with 20 samples.

Results

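The chromatin response to all-trans retinoic acid (ATRA) was described here in Cas9 control HL60 cells, the arm of the experiment that kept *HK3*. HL60 is a human acute promyelocytic-like leukaemia cell line that matures towards neutrophils when ATRA is added. The members were ATACseq regions whose mean signal over the 2 Cas9 control ATRA and the 2 Cas9 control DMSO libraries was 17 or more, which held for 5493 of the 8286 deposited regions. Signal is the average fragment density of a region, and all differences are on the log2(signal + 1) scale, ATRA minus DMSO. A region was called opening or closing where it changed by at least 1.5-fold with an adjusted p under 0.05 (limma, Benjamini-Hochberg). The Cas9 control cells carried Cas9, and the *HK3*-null cells, used below for comparison only, were Cas9 cells edited at *HK3*, the gene of hexokinase 3. Per the methods of the study the edited cells were grown from single clones, so a genotype difference cannot be told apart from a difference between clones. Both genotypes received 1 µM ATRA or 0.01% DMSO for 36 h, with 2 ATACseq libraries and 3 RNAseq libraries in each of the 4 groups. In bulk samples a lower signal from fewer cells of a type cannot be told apart from a lower signal per cell.

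ATRA enters cells as a ligand of the retinoic acid receptors, which sit on DNA as heterodimers with retinoid X receptors at repeats of a short half-site. Without ligand these receptors recruit co-repressors and deacetylases, and with ligand they exchange them for co-activators. In promyelocytic cells the maturation that follows is carried by myeloid factors such as PU.1, C/EBP and RUNX proteins, and ATACseq reads where DNA becomes more or less accessible to the Tn5 transposase.

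Before any comparison, 2 features of the data have to be stated. Cas9 control ATRA replicate 2 stood apart, with a total signal of 244488 against 345345 in ATRA replicate 1, 358350 in DMSO replicate 1 and 388124 in DMSO replicate 2. Its median over kept regions was 31.9, against 45.3 in ATRA replicate 1, 46.3 in DMSO replicate 1 and 49.8 in DMSO replicate 2. The median kept region therefore lay 0.29 below DMSO on the log2 scale (-0.29), and 0.03 above it once every library was centred on its own median. Without ATRA replicate 2 the median difference was -0.05. The deposited regions also all differ by 1.5-fold or more between *HK3*-null and Cas9 control cells in ATRA, so the Cas9 control ATRA libraries took part in choosing the regions that are tested here. The counts below are thus over a selected list and not over the genome. In RNAseq, Cas9 control DMSO replicate 1 had 11301 genes listed at 0, against 12250 to 12885 in the other 5 Cas9 control libraries.

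The RNAseq libraries were checked for the cell type and the treatment. All 9 myeloid markers averaged at least 50 normalized counts, summing to 567912 to 629540 in ATRA and 767428 to 828759 in DMSO. The 4 T cell markers summed to 1 to 8 counts in every Cas9 control library. The B cell list summed to 82 to 108 counts in ATRA and 46 to 59 in DMSO with MS4A1 at 0, and the erythroid list to 20 to 24 and 41 to 44 with HBA1 at 0. The megakaryocyte list summed to 16 to 17 in ATRA and 2 to 6 in DMSO with GP9 and PF4 at 0, the epithelial list to 11 to 60 and 16 to 39, and the endothelial list to 144 to 172 and 45 to 58. The part of these lists in the results was not tested. Of the 28 tested genes on a list of known ATRA targets, 17 were higher in ATRA and 0 were lower, with a median log2 fold change of 2.36, where 6.84% of all tested genes were higher and 2.78% lower. *HK3* itself had 1305, 1298 and 1850 normalized counts in ATRA and 90, 65 and 105 in DMSO, a log2 fold change of 4.11 ± 0.21 (SE, adjusted p = 5.46e-08). No kept region listed *HK3*.

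The central 200 bases of 6 regions are shown because they hold the retinoid half-site or the AP-1 motif counted over all windows below, read from hg38, 5′ to 3′ on the plus strand. In the 2 opening windows the capitals mark the retinoid half-site AGGTCA on either strand.
Intergenic near PKDCC, opening (chr2:42072947-42073146): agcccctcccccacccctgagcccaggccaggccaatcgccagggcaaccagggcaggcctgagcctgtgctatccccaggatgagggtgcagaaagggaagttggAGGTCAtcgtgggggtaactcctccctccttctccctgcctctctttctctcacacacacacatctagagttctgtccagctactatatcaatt
IRF1 intron, listing C5orf56, opening (chr5:132467678-132467877): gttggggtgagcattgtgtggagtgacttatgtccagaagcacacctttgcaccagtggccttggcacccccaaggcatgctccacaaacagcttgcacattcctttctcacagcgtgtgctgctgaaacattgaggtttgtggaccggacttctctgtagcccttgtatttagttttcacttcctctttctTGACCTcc
In the 4 closing windows the capitals mark the AP-1 motif TGANTCA, the site of FOS and JUN dimers.
Intergenic near SND1, closing (chr7:127635115-127635314): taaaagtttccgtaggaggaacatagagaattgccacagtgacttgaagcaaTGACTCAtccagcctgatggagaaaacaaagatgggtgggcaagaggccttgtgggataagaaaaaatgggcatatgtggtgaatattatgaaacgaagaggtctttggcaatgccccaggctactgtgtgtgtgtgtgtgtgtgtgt
RUNX1 intron, closing (chr21:34967599-34967798): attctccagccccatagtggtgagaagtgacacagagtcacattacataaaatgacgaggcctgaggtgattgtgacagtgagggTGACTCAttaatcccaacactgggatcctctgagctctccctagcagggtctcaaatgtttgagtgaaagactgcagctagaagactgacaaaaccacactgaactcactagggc
EDEM1 promoter, closing (chr3:5194838-5195037): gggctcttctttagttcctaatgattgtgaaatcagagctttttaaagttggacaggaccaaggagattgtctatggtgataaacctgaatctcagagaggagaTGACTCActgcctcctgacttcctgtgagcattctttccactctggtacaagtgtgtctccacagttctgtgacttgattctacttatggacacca
RAB31 intron, closing (chr18:9743570-9743769): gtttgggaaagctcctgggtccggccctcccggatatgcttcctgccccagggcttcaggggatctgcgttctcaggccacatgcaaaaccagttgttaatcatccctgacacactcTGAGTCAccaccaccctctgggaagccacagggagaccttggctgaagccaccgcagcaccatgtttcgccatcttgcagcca

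ATRA was followed by 157 opening and 867 closing regions among the 5493 kept, 2.86% and 15.8% of those tested. The opening regions had a median log2 difference of 1.41 (range 0.77 to 3.59) and the closing regions one of -1.30 (range -3.87 to -0.75). The median signal of the opening regions was 57.2 and 38.8 in the ATRA libraries and 14.9 and 17.2 in the DMSO libraries. That of the closing regions was 33.1 and 23.0 in ATRA against 72.9 and 79.2 in DMSO. Both ATRA libraries lay above both DMSO libraries in all 157 opening regions and below them in 864 of 867 closing regions, whereas 11.2% and 43.3% of kept regions did so. The calls rest on these same libraries, so this separation describes the called regions and is no separate support. In 81 of the 157 opening regions the DMSO mean was under 17, so that these passed the filter through ATRA, and in 204 of the 867 closing regions the ATRA mean was under 17. The 81 include the opening regions named below for MYOF, PTGES, SPATA13, MAD1L1, MMP25, MECOM and TNFRSF10C. They also include most of the largest openings, those named for UBAC2, APOBEC3G, UBR4, OR8B12, ANKRD6, SQSTM1 and CABLES1. Their DMSO means were 6.86 to 11, whereas that of the RMDN3 region was 20.4.

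**Figure D1:**
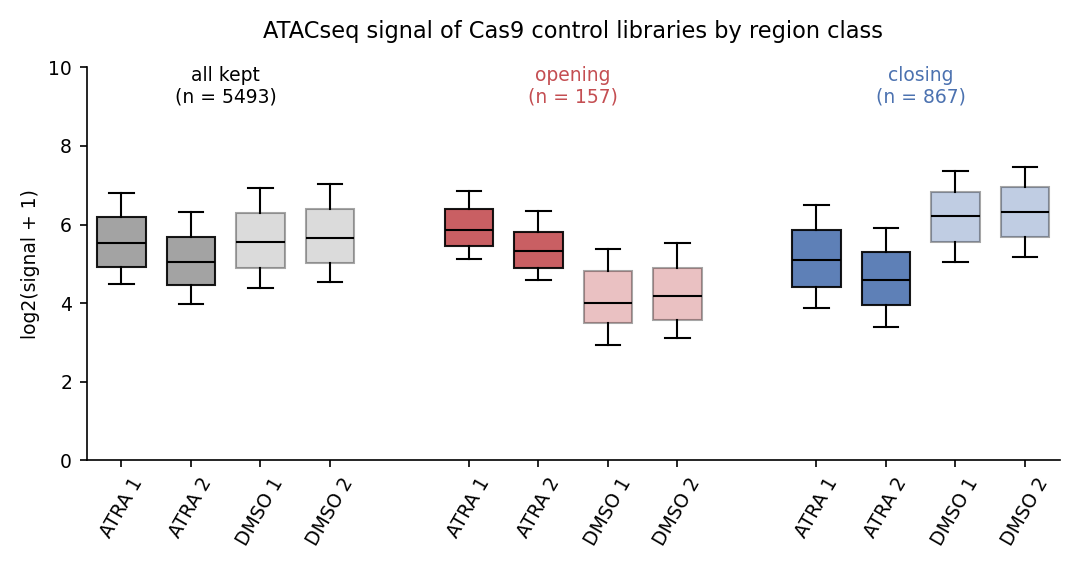
Boxes give log2(signal + 1) per Cas9 control ATACseq library for all 5493 kept, 157 opening and 867 closing regions, with the median as a line, quartiles as the box and the 10th and 90th percentiles as whiskers. ATRA 2 lies below ATRA 1 in each class, and the ATRA and DMSO medians change order between the opening and the closing class.

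The balance between the directions depended on library scale. After median centring 381 regions opened and 553 closed, and 155 of the 157 opening and 553 of the 867 closing regions kept their call. Without ATRA replicate 2, which leaves 1 ATRA library whose spread is taken from the other groups, 142 opened and 328 closed. Of the original calls, 116 opening and 316 closing regions were called in all 3 of these fits. The counts moved with the other libraries too, to 52 opening and 1172 closing without ATRA replicate 1, 54 and 460 without DMSO replicate 1, and 74 and 318 without DMSO replicate 2. Of the 26 opening and 65 closing regions called and chosen by the naming rule, 26 and 50 kept their call after centring. With a library left out, 14 and 62 did so without ATRA replicate 1, 25 and 32 without ATRA replicate 2, 14 and 42 without DMSO replicate 1, and 18 and 32 without DMSO replicate 2.

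**Figure D2:**
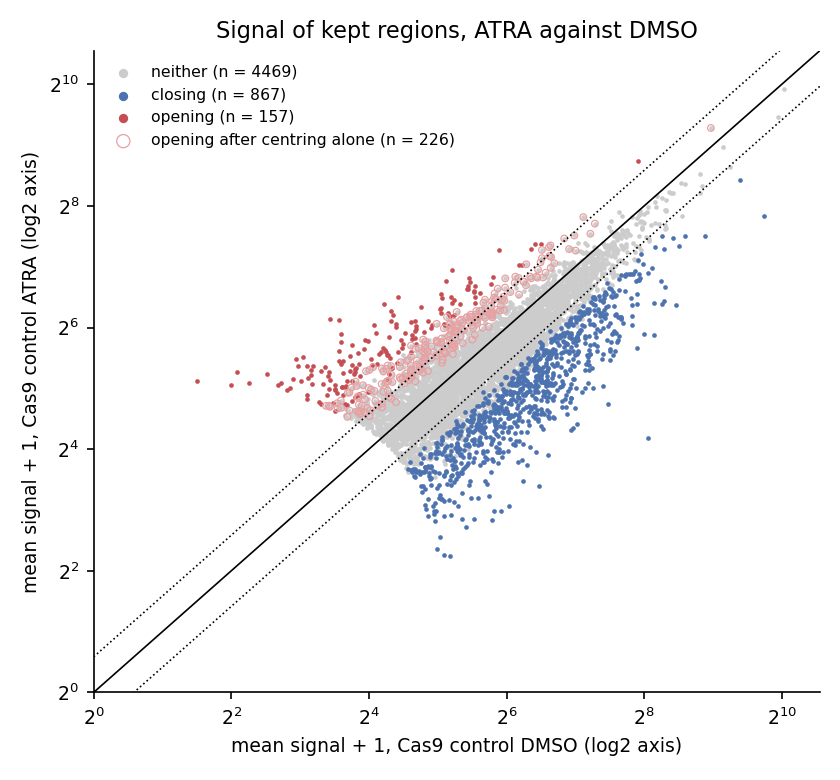
Each point is a kept region, with the mean signal + 1 of the 2 DMSO libraries on the x axis and of the 2 ATRA libraries on the y axis, both on log2 axes. The solid line marks equality and the dotted lines a 1.5-fold change; 157 red points lie above and 867 blue points below, and open circles are called opening after median centring alone.

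Calls were not spread evenly over the selection. Among the 3565 kept regions with the higher signal in Cas9 control ATRA, 118 opened (3.31%) and 447 closed (12.5%). Among the 1928 regions with the higher signal in *HK3*-null ATRA, 39 opened (2.02%) and 420 closed (21.8%). After centring the closing shares were 6.93% and 15.9% and the opening shares 6.87% and 7.05%. These shares are descriptions, since a low signal in Cas9 control ATRA both puts a region on the second side and counts as closing.

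The largest opening regions with a listed gene and an ATRA mean signal of 40 or more sat in or beside genes of varied function. The region listing UBAC2, an endoplasmic reticulum protein, is intronic at chr13:99356246-99356738 and read 75.2 and 61.7 in ATRA against 11.8 and 9.75 in DMSO. Its difference was 2.56 ± 0.44 (SE, n = 2 against 2, adjusted p = 7.68e-07). At the promoter of APOBEC3H, also listing the cytidine deaminase APOBEC3G, the signal was 54.6 and 26 in ATRA and 2.91 and 10.8 in DMSO (2.51 ± 0.53, adjusted p = 7.51e-05). The naming rule took only regions where the ATRA and DMSO libraries did not overlap, so their separation here follows from the choice.

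An intronic region of UBR4, a ubiquitin ligase, rose from 10.3 and 11.8 to 65.9 and 51.4, a difference of 2.30. The region of the olfactory receptor gene OR8B12 rose from 6.77 and 8.31 to 51.0 and 29.3, and that of ANKRD6, a Wnt pathway protein, from 10.6 and 5.62 to 46.2 and 33.9. An exonic region listing SQSTM1, the autophagy receptor p62, rose from 7.15 and 14.9 to 68.0 and 38.6. The remaining 2 of these 8 regions, in introns of RMDN3 and CABLES1, both differed by 2.08. All 8 kept their call after centring, and all but that of APOBEC3G did so whichever Cas9 control library was left out. The APOBEC3G call was lost without ATRA replicate 1 (adjusted p = 0.0567) or DMSO replicate 1 (0.0838). The RNA of their genes mostly stayed under the threshold: ANKRD6 RNA rose by 1.97 ± 0.48 (adjusted p = 0.00656), whereas UBAC2 (-0.15), UBR4 (-0.16), SQSTM1 (0.36), RMDN3 (-0.18) and CABLES1 (0.47) were not called. APOBEC3G had 11, 15 and 19 normalized counts in ATRA and 1, 2 and 0 in DMSO, with adjusted p = 0.153 on the deposited values, where 0 is written as the log2 of 0.001, and 0.000598 on log2(count + 1).

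Of the large openings without a listed gene, 2 intergenic ones are given. The one at chr2:42072806-42073288, 18090 bases from PKDCC, read 87.9 and 51.9 in ATRA against 9.40 and 10.2 in DMSO (2.67 ± 0.40, adjusted p = 1.12e-08). Another, at chr13:44274359-44274717, was 99127 bases from SERP2 and read 48.3 and 25.2 against 3.27 and 6.18. All ATRA values exceeded all DMSO values at both sites. The DMSO means, 9.8 near PKDCC and 4.73 near SERP2, were under 17, so both regions passed the filter through ATRA.

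Opening regions whose genes also gained RNA included a sugar transporter, a ubiquitin ligase subunit and an eicosanoid enzyme. SLC2A5, the fructose transporter GLUT5, had an intronic region with 82.7 and 70.5 in ATRA and 14.3 and 23.6 in DMSO, a difference of 1.99 ± 0.34 (adjusted p = 3.57e-07). Its RNA went from 2892, 2670 and 2751 normalized counts in DMSO to 15789, 16134 and 14650 in ATRA, a log2 fold change of 2.49 ± 0.08 (adjusted p = 7.59e-10). The groups did not overlap in either assay.

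ASB2, which recruits targets to an E3 ligase and is a known ATRA target, had an intronic region at chr14:93971015-93971545 with 86.6 and 45.1 in ATRA and 17.1 and 22.9 in DMSO (1.61 ± 0.38, adjusted p = 0.000536). ASB2 RNA rose from 33, 16 and 29 to 375, 466 and 651 normalized counts (4.29 ± 0.28, adjusted p = 4.36e-07). A region that lists C5orf56, at chr5:132467636-132467921, lies by GENCODE in an intron of IRF1, an interferon regulatory factor, 5265 bases from the nearest IRF1 start, and read 108 and 95.2 against 37.1 and 48.1. RNA rose at both genes, by 2.46 at C5orf56 and by 2.53 at IRF1.

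The region at chr22:50308556-50308894 lists DENND6B and PLXNB2, a semaphorin receptor, and read 72.5 and 51.5 against 21.8 and 27.6. Both RNAs rose, DENND6B by 3.67 ± 0.24 and PLXNB2 by 1.08 ± 0.07. The other 2 of 3 kept regions that list PLXNB2 closed. At the promoter of PTGES, the prostaglandin E synthase, the signal was 34.8 and 22.2 in ATRA and 6.64 and 16.0 in DMSO, a difference of 1.34. PTGES had 93, 149 and 82 normalized counts in ATRA and 1, 0 and 0 in DMSO, and its RNA passed on the deposited values (adjusted p = 0.00472) and on log2(count + 1), where the log2 fold change was 6.39. With 1 library left out, the SLC2A5 region kept its call throughout, whereas the others did not. The ASB2 call was lost without ATRA replicate 1 (adjusted p = 0.054) or DMSO replicate 1 (0.0515), and the C5orf56 call without DMSO replicate 1 (0.113). The DENND6B and PLXNB2 call was lost without ATRA replicate 1 (0.0721), DMSO replicate 1 (0.154) or DMSO replicate 2 (0.0521), and the PTGES call without ATRA replicate 1 (0.143) or DMSO replicate 1 (0.394).

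Falls of RNA at opening regions were rare. SPATA13, a guanine nucleotide exchange factor, was the 1 gene of these that passed, at -1.09 ± 0.27 (adjusted p = 0.00645), beside an intronic region that rose from 11.2 and 14.8 to 53.7 and 25.2. That region lost its call without ATRA replicate 1 (adjusted p = 0.272), DMSO replicate 1 (0.167) or DMSO replicate 2 (0.0613). Of the genes averaging at least 50 counts in a group, the other 4 with the lowest values, MYOF (-1.40), MAD1L1 (-0.79), MMP14 (-0.77) and LMO2 (-0.60), were not called. MYOF, the membrane repair protein myoferlin, had 6, 1 and 14 normalized counts in ATRA and 154, 5 and 2 in DMSO, and MMP14, a membrane-bound metalloproteinase, had 44, 34 and 32 against 439, 27 and 20. Their signs thus rested on DMSO replicate 1, and without it the values were 0.47 for MYOF and 0.64 for MMP14. The MYOF intronic region itself was among the largest openings, with 33.4 and 32.3 in ATRA and 4.08 and 3.50 in DMSO, and the MMP14 region (0.93) lost its call without ATRA replicate 1 (adjusted p = 0.0606), ATRA replicate 2 (0.137) or DMSO replicate 1 (0.526).

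The largest closing regions lost nearly all of their signal. The region listing DRGX, a homeobox gene of sensory neurons, at chr10:49360091-49360934 read 17.4 and 16.9 in ATRA and 250 and 278 in DMSO, the largest difference of the set at -3.87 ± 0.38 (adjusted p = 1.06e-18). DRGX RNA was at 0 in all 6 Cas9 control libraries. An intronic region of SLC43A2, an amino acid transporter, read 10.7 and 8.32 against 72.7 and 103 (-3.07 ± 0.48), and an exonic one of IDE, the insulin-degrading enzyme, 9.71 and 5.12 against 60.5 and 68.4 (-3.01 ± 0.34). At each of these the ATRA libraries lay several-fold under the DMSO libraries.

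The promoter region of KRT80, a keratin, read 8.91 and 5.0 in ATRA and 55.0 and 64.2 in DMSO (-2.97 ± 0.36, adjusted p = 1.55e-12). A region listing the lysosomal protease CTSA with 4 neighbours (-2.81), an intron of the cytolinker PLEC (-2.77), a region beside MYO18B (-2.75) and the promoter of EDEM1, a lectin of endoplasmic reticulum quality control (-2.73), completed the 8. All 8 kept their call after centring and whichever Cas9 control library was left out. RNA did not follow to the same extent: SLC43A2 (-0.79), IDE (-0.37), EDEM1 (0.09) and CTSA (0.31) all stayed under 2-fold, and PLEC (-0.99) was just short of the 2-fold rule. KRT80 had 1, 0 and 4 normalized counts in ATRA and 15, 11 and 14 in DMSO, with an adjusted p of 0.123 on deposited values and 0.00148 on log2(count + 1).

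**Figure D3:**
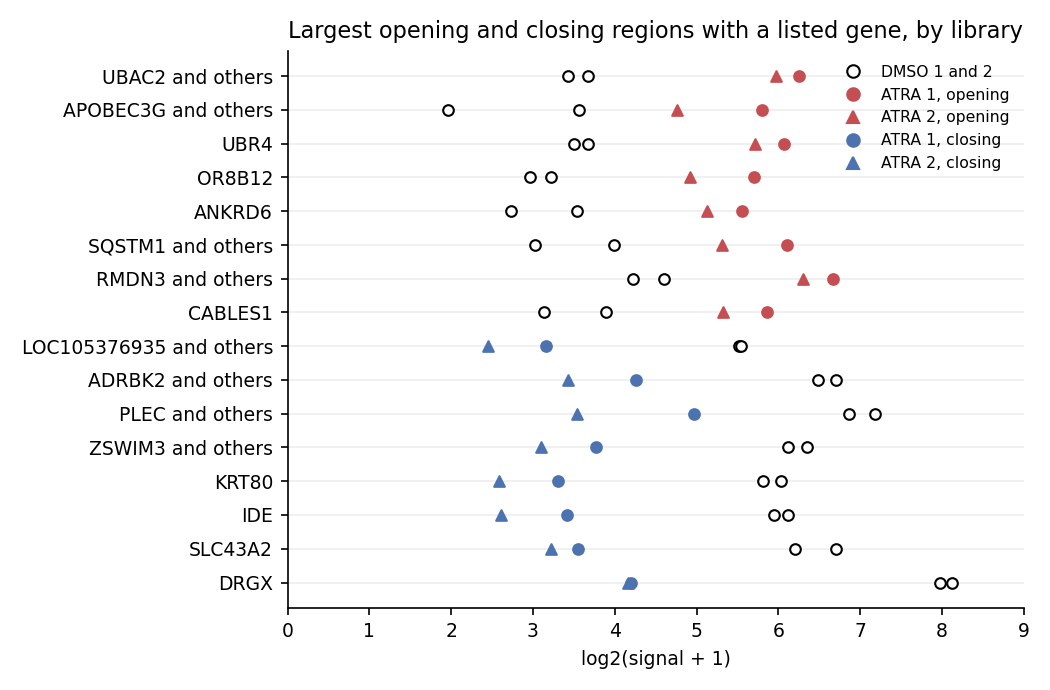
Rows are the 8 largest opening (red) and 8 largest closing (blue) regions with a listed gene and a higher-group mean signal of 40 or more. They are named by the first gene listed, and the x axis is log2(signal + 1). Open circles are the 2 DMSO libraries, filled circles ATRA 1 and triangles ATRA 2. In every row both ATRA symbols lie on the same side of both DMSO symbols, because regions were chosen for this.

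Of the gene-free closings, the largest lay at chr7:127634917-127635514, 16979 bases from SND1, and read 11.2 and 2.60 in ATRA against 48.9 and 61.9 in DMSO (-3.08 ± 0.37). The next, at chrX:150200895-150201343, read 4.20 and 3.23 against 32.5 and 37.7 (-2.94). The third, at chr2:192500651-192501210, was 305997 bases from TMEFF2 and read 6.06 and 6.27 against 42.8 and 65.8 (-2.92). All ATRA values were below 12 and all DMSO values above 32.

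Progenitor and signalling genes were among those whose closing regions went with lower RNA. ERG, an ETS factor of haematopoietic stem cells, had an intronic region at chr21:38476263-38476822 with 43.6 and 20.4 in ATRA and 175 and 161 in DMSO (-2.45 ± 0.33, adjusted p = 1.15e-10). ERG RNA went from 96, 93 and 98 to 36, 20 and 28 normalized counts (-1.81 ± 0.23, adjusted p = 8.28e-05). RUNX1, a core myeloid transcription factor, had an intronic region with 6.40 and 6.70 against 37.2 and 34.2 (-2.28), but its RNA changed by -0.33 and did not pass (adjusted p = 0.0599).

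MZB1, an endoplasmic reticulum co-chaperone, had 2 promoter regions that closed, with 100 and 62.5 against 329 and 371 at the first and 78.5 and 40.1 against 166 and 216 at the second. MZB1 RNA went from 3258, 3392 and 3535 to 772, 640 and 548 normalized counts (-2.39 ± 0.27, adjusted p = 3.69e-05). The second of these regions lost its call without ATRA replicate 2 (adjusted p = 0.110). SPRY4, an inhibitor of receptor tyrosine kinase signalling, had 3 closing regions of 3 kept, with differences of -1.82, -1.06 and -0.98. SPRY4 RNA read 13, 6 and 15 in ATRA and 357, 298 and 339 in DMSO. Its adjusted p was 0.0932 in the fit of 12 libraries and 0.000318 in the 6 Cas9 control libraries alone, and only the -1.82 region kept its call without ATRA replicate 2.

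CHAC1, a glutathione-degrading enzyme, behaved in the same way in RNA, with 12, 8 and 5 normalized counts against 102, 128 and 94, an adjusted p of 0.201 and one of 0.000838 in the Cas9 control libraries alone. Its promoter region read 81.5 and 61.2 against 218 and 186 (-1.50), and lost its call without ATRA replicate 2 (adjusted p = 0.065). RTN4RL2, a Nogo receptor homologue (10, 4 and 8 counts against 57, 45 and 64), and ADAMTS17, a secreted metalloproteinase (RNA -2.69 ± 0.25), both passed in RNA. Their closing regions, at -0.93 and -1.37, lost their calls after centring and without ATRA replicate 2.

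Other closing regions belonged to genes whose RNA rose. ID1, an inhibitor of basic helix-loop-helix factors, had 213, 220 and 220 normalized counts in ATRA and 9, 5 and 4 in DMSO (5.27 ± 0.34, adjusted p = 3.73e-07). A region 2224 bases from its start read 33.8 and 27.8 against 72.9 and 71.4 (-1.21 ± 0.31). RAB31, a small GTPase of vesicle traffic, had 5788, 6274 and 5635 counts against 405, 365 and 324 (4.02 ± 0.08, adjusted p = 1.71e-11), with an intronic region at 13.5 and 13.1 against 26.8 and 41.5 (-1.27 ± 0.34). At both genes the assays moved in opposite directions with no overlap between libraries, but the RAB31 region lost its call without DMSO replicate 2 (adjusted p = 0.222).

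PRKCB, protein kinase C beta, showed the same pattern with RNA at 2.68 ± 0.08 and an intronic region at 81.0 and 68.7 against 142 and 190 (-1.13). ABCA13, a lipid transporter, had RNA at 3.32 ± 0.22 and a promoter region at 32.7 and 27.2 against 69.1 and 75.2 (-1.24). The PRKCB call was lost without ATRA replicate 2 (adjusted p = 0.0617) or DMSO replicate 2 (0.196). The ABCA13 call was lost without ATRA replicate 2 (0.151), DMSO replicate 1 (0.142) or DMSO replicate 2 (0.233) and after centring (0.0622). PALLD, an actin-bundling protein, had 65, 95 and 104 counts in ATRA and 145, 0 and 0 in DMSO, and FAM20C, a secretory pathway kinase, 73, 124 and 83 against 45, 1 and 2. Both were called higher in RNA, with DMSO replicate 1 far from the other 2 DMSO libraries, and neither region held after centring.

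The 12 gene lists were described by counts, with no test of a list. Over all kept regions 2.86% opened and 15.8% closed, and over all tested genes 6.84% were higher and 2.78% lower in RNA. The ATRA targets had 8 kept regions, of which 1 opened (ASB2) and 3 closed (DHRS9, TGM5 and LAPTM5), with a median difference of -0.53. After centring 3 of the 8 opened and 2 closed. The DHRS9 promoter read 19.7 and 15.5 against 44.8 and 70.1 (-1.63), and DHRS9 RNA rose from 3, 2 and 2 to 7, 12 and 20 counts (2.38 ± 0.42). TGM5 RNA rose by 2.34 ± 0.11 and LAPTM5 RNA, at 0.77, stayed under 2-fold.

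For granulocyte maturation 1 of 12 kept regions opened (MMP25, a leukocyte metalloproteinase, RNA 1.37 ± 0.18) and 1 closed, in an intron of SPI1, the PU.1 gene, whose RNA was at 0.24. In the azurophil granule list 0 of 8 regions opened and 3 closed. They list PRSS57, a neutrophil serine protease (-1.32, RNA -1.67 ± 0.11), SRGN, the granule proteoglycan serglycin, and AZU1 together with PRTN3. Of the 24 tested genes of that list, 9 were lower and 5 higher in RNA, against 2.78% and 6.84% of all tested genes. The NADPH oxidase list had 1 closing region of 6 (PRKCB), and the integrin and adhesion list 1 of 4, at ITGA5, a fibronectin receptor chain, with RNA at 1.07 ± 0.20.

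Among chemoattractant receptors 1 of 8 regions closed, listing C3AR1, the C3a receptor (-1.57, RNA 0.36), and among innate immune receptors 2 of 9 closed, at CLEC4E (-1.45), a C-type lectin, and SIRPA (-1.44), an inhibitory receptor. CLEC4E RNA was at most 3 counts in any Cas9 control library and was nevertheless called lower. In the inflammatory mediator list 2 of 10 regions closed, both in the lymphotoxin and TNF cluster. The TNF promoter read 62.3 and 41.6 against 114 and 119 (-1.18 ± 0.29), TNF RNA fell from 175, 160 and 90 to 54, 52 and 32 counts (-1.60 ± 0.32, adjusted p = 0.00206), and LTB RNA was at -0.62.

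The stem and progenitor list had the most kept regions, 30, with 3 opening (LMO2, MECOM and RUNX3) and 4 closing (ERG, RUNX1, IGF1R and PRDM16). RUNX3, a RUNX factor of maturing leukocytes, had a promoter region with 47.7 and 30.8 against 17.4 and 20.8 (0.97 ± 0.32) and RNA at 1.32 ± 0.15. In the MYC, growth and cell cycle list 0 of 18 regions opened and 3 closed, with 2 of these at CCND3, the D-type cyclin (-1.07 for the larger, RNA 0.66), and 1 listing NPM1, nucleophosmin (-0.90, RNA -0.65). Of hexokinase and glycolysis genes 1 of 10 regions opened (SLC2A5) and 4 closed, including regions of ENO1, enolase 1 (-1.31, RNA -0.30), and of PFKFB3, a regulator of glycolytic flux (-1.81, RNA 0.24). In the BCL2 family and cell death list 2 of 29 opened and 3 closed. BAK1, a pore-forming killer protein, had an intronic opening region at 119 and 94.9 against 40.4 and 46.1 (1.28), with RNA at 0.57, and BMF, a BH3-only protein, an intronic closing region (-1.76, RNA -0.74). In this list TNFRSF10C, a decoy receptor for TRAIL, opened at its promoter (1.40). Its RNA was called higher on only 6, 10 and 5 counts against 4, 1 and 2.

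After centring the counts of each list moved by at most 2 regions in either direction, which is large beside counts of 0 to 4. Closing fell from 3 to 1 in the azurophil, MYC and BCL2 lists and from 1 to 0 for granulocyte maturation. Opening rose from 1 to 3 for ATRA targets and from 0 to 2 for chemoattractant receptors. The named calls for SPI1 (limma adjusted p = 0.0757), SRGN (0.177), NPM1 (0.324) and BMF (0.0667) were lost after centring. Without ATRA replicate 2 the calls named for TGM5, SPI1, PRSS57, SRGN, PRKCB, ITGA5, SIRPA, CCND3, NPM1, PFKFB3 and BMF were lost, at adjusted p of 0.0604 to 0.345. The calls for ERG, RUNX1, DHRS9, C3AR1 and CLEC4E held whichever Cas9 control library was left out, and those for TNF (adjusted p = 0.0517) and ENO1 (0.063) were lost without DMSO replicate 2. Of the opening calls, those for RUNX3, LMO2 and MMP25 were lost without ATRA replicate 1, DMSO replicate 1 or DMSO replicate 2 (adjusted p of 0.0747 to 0.432). MECOM (0.0614 and 0.0904) and TNFRSF10C (0.0832 and 0.17) were lost without ATRA replicate 1 or DMSO replicate 2, and BAK1 without DMSO replicate 1 (0.0841).

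Few genes collected several calls, and none had 3 opening regions. TNFAIP8, an apoptosis regulator, had 3 closing regions of 4 kept (-1.94, -1.38 and -1.12) and RNA at -0.77 ± 0.06. RASA3, a Ras GTPase-activating protein, had 3 of 4 (-1.14 to -0.87, RNA -0.47), none of which held without ATRA replicate 2. PLEC had 3 of 6, and CTNNA2, alpha-N-catenin, 3 of 3 with at most 3 RNA counts in any Cas9 control library. Without ATRA replicate 2 none of the CTNNA2 calls (adjusted p of 0.125 to 0.177), and neither the smallest TNFAIP8 (0.275) nor the smallest PLEC call (0.0545), held. A cluster on chromosome 9 that lists GRIN1, LRRC26, TMEM210 and ANAPC2 had 3 of 5, and so did the non-coding entry LOC101928004. MIR5100 had 3 of 3. Without ATRA replicate 2 the MIR5100 differences of -0.97, -1.71 and -1.42 became -0.64, -1.16 and -0.92, and these calls did not hold. The smallest call of the chromosome 9 cluster (-0.91, then -0.49) and that of LOC101928004 (-0.91, then -0.80) did not hold either. Kept regions within 10 kb of each other formed 783 neighbouring pairs; both were called in the same direction in 41 of them and in opposite directions in 6. The opposite pattern also occurred within a gene: MAD1L1, of the spindle checkpoint, had a closing intron region (-1.95) and an opening one (1.06), which lost its call without ATRA replicate 1 (adjusted p = 0.0979), DMSO replicate 1 (0.339) or DMSO replicate 2 (0.0623).

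The RNA of all listed genes was set beside the calls. The 157 opening regions list 168 genes, of which 88 were tested in RNA, and 21 of these (23.9%) were higher and 1 (1.14%) lower in ATRA. Over all 13256 tested genes 6.84% were higher and 2.78% lower. The median log2 fold change was 0.23 at opening regions and 0.00 over all. The 867 closing regions list 1019 genes with 514 tested; 45 (8.75%) were higher and 41 (7.98%) lower, with a median of -0.02. Among the 2429 tested genes at any kept region, 8.89% were higher and 4.16% lower. A Cas9 control library stood at 0 in 4 of the 21 higher genes at opening regions. At closing regions it did in 4 of the 45 higher and 4 of the 41 lower genes, and over all tested genes in 96 of 907 higher and 48 of 369 lower.

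These shares moved little with the choice of regions. They were 20.5% higher and 1.67% lower at the opening regions of the centred data, 25.6% and 2.44% without ATRA replicate 2, and 21.2% and 1.92% at opening regions listing 1 gene. At closing regions they were 8.76% and 8.16% after centring and 7.51% and 7.98% without ATRA replicate 2. Of the 19 tested genes at opening promoters 6 were higher and 0 lower, and of the 147 at closing promoters 13 were higher and 14 lower. Across the 2429 genes the mean region difference and the RNA change correlated at Pearson's r = 0.17 and Spearman's rho = 0.17, a description over genes that share the same libraries.

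**Figure D4:**
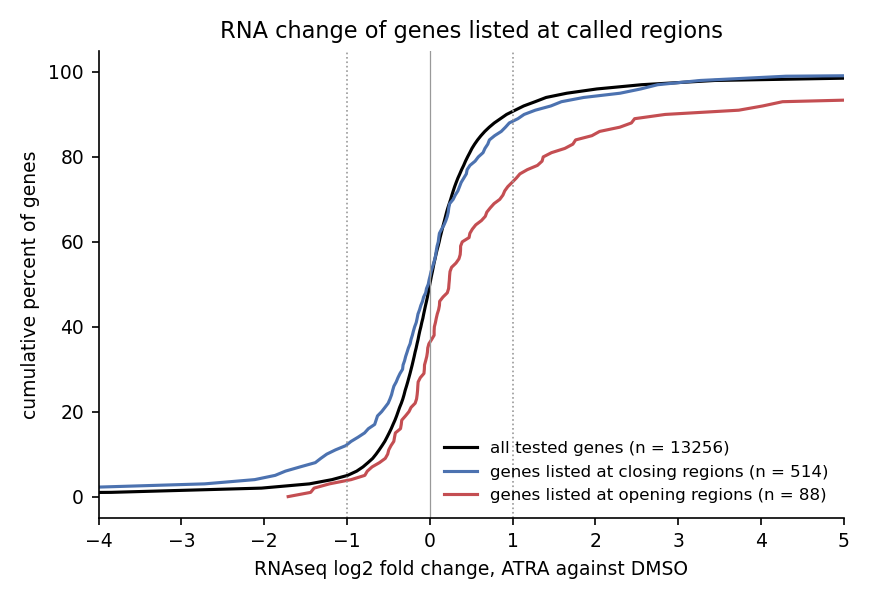
Curves give the cumulative percent of genes (y axis) up to each RNAseq log2 fold change, Cas9 control ATRA against DMSO (x axis), for all 13256 tested genes and for those listed at 514 closing-region and 88 opening-region entries; dotted lines mark 2-fold. The opening curve lies to the right of the others, and the closing curve lies to the left below 0 and close to all genes above 0.

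By position, promoters, taken as a region within 1000 bases of a GENCODE transcript start, made up 24.9% of kept regions, 15.3% of opening and 15.6% of closing regions. Introns made up 43.5%, 48.4% and 48.6%, and intergenic DNA 27.3%, 29.3% and 30.8%. The median distance to a protein-coding start was 12705 bases over kept regions, 11860 over opening and 16600 over closing regions. Median length was 496, 459 and 524 bases in the same order. Regions with no listed gene made up 19.3% of kept, 23.6% of opening and 19.4% of closing regions.

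Motif content was counted next. Each of 11 short motifs was searched on both strands of the central 200 bases, with the share over all kept windows as the background. The retinoid half-site AGGTCA was found in 24.8% of opening, 9.69% of closing and 11.9% of kept windows. AP-1, TGANTCA, was found in 5.10% of opening, 27% of closing and 10.7% of kept windows. The C/EBP motif TTGCNNAA was in 11.5%, 21.6% and 13.8%, and the ETS core GGAAGT in 42%, 23.8% and 30.5%.

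The others are given in the order opening, closing and kept. RUNX, TGTGGT, was in 26.8%, 28.8% and 23.6%, and the PU.1 form AGAGGAAG, which shares its GGAAG letters with the ETS core, in 9.55%, 8.07% and 10.4%. The motif of GATA factors, AGATAA, was in 3.18%, 8.19% and 7.48%, and the E-box CACGTG in 3.82%, 7.5% and 5.30%. The GC box GGGCGG was in 8.92%, 11.2% and 16.9%, and the CTCF core in 0.637%, 0.461% and 1.42%. A direct repeat of AGGTCA with 5 bases between was in 1 of 5493 kept windows, and in 0 of the called ones.

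Outside promoters the half-site was in 27.1% of opening and 13.1% of kept windows, and AP-1 in 27.6% of closing and 12.1% of kept windows. In the 116 opening and 316 closing regions called without centring, after centring and without ATRA replicate 2 the half-site share was 25.9% and the AP-1 share 39.6%. AP-1 was in 46.9% of closing and 20.7% of kept windows with the higher signal in *HK3*-null ATRA, but in 8.28% and 5.25% of those with the higher signal in Cas9 control ATRA. The half-site was more frequent at opening than at kept regions on both sides, at 33.3% against 12.7% and at 22.0% against 11.5%. Read the other way, 39.9% of the 587 kept windows with AP-1 closed and 5.95% of the 656 with the half-site opened. A match is a description of letters and not of binding.

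**Figure D5:**
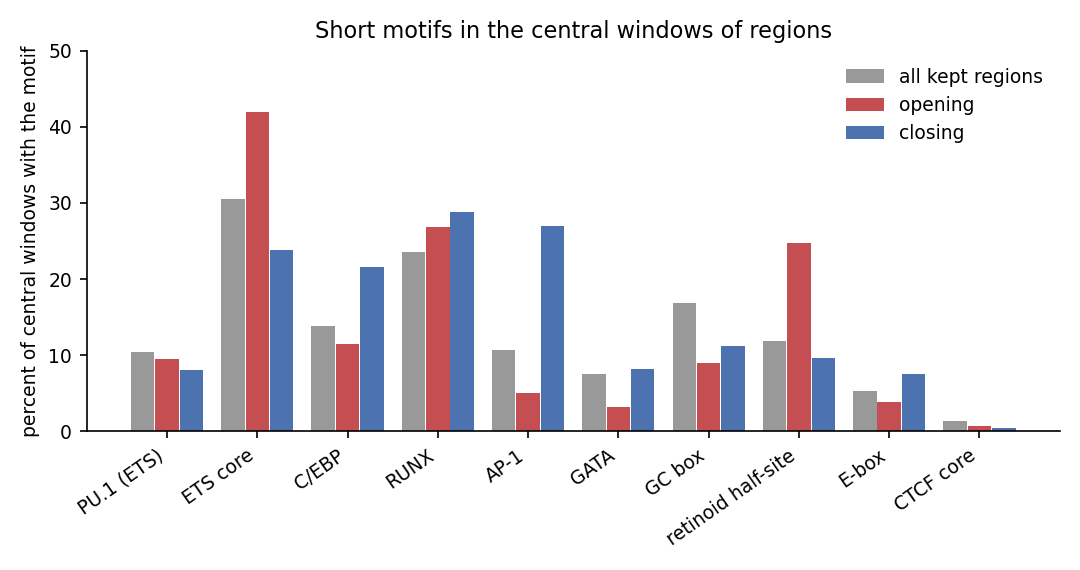
Bars give the percent of central 200-base windows that hold each motif on either strand, for all kept (grey), opening (red) and closing (blue) regions. The retinoid half-site and ETS core bars are tallest for opening regions, and the AP-1 and C/EBP bars are taller for closing than for opening regions.

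The *HK3*-null libraries, which share no sample with the Cas9 control contrast, mostly moved in the same direction at these regions. *HK3*-null ATRA was above *HK3*-null DMSO in 89.2% of the 157 opening regions, against 36.3% of all kept regions. It was below in 90% of the 867 closing regions, against 63.7% of all kept. The median *HK3*-null difference was 0.93 at opening and -0.77 at closing regions. In *HK3*-null cells 4.62% of kept regions opened and 13.2% closed. Of the 157 opening regions 67 were called in *HK3*-null cells, where 254 were called in all, and of the 867 closing regions 363, of 723 in all.

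The difference between the genotypes' ATRA changes was tested as an interaction and passed in 37 kept regions, 0.674% of those tested, of which 4 were opening and 20 closing. Of the 20, 18 fell less in *HK3*-null cells. They were called on their fall in Cas9 control cells, which also enters the interaction, so this count partly follows from the choice. Over all 37 regions the *HK3*-null change was more positive in 26 and more negative in 11. This count moved with single libraries and was 0 without Cas9 control DMSO replicate 2, 4 without DMSO replicate 1, 8 without ATRA replicate 2 and 115 without ATRA replicate 1. At ERG the *HK3*-null change was -4.15, against -2.45 in Cas9 control cells (interaction adjusted p = 0.0435).

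The members just inside the signal limit had mean signals of 17 and those just outside 16.976 to 16.979. Just inside, a region listing NREP-AS1 read 16.7 and 16.8 in ATRA and 13 and 21.5 in DMSO. Just outside, one listing GGT7 read 20.3 and 13.5 against 20.3 and 13.8.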

How the data were processed

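ATACseq and RNAseq libraries of HL60 cells were analysed as deposited. For ATACseq the authors mapped paired 42-base reads to hg38 with bwa mem, kept unique alignments with at most 2 mismatches, removed PCR duplicates, extended reads to 200 bases, called intervals with MACS2, reduced every library to the smallest tag number and averaged fragment densities of 32-base bins over merged regions. The deposited signal is this average density, and depth per region in reads is unknown. Of the merged regions, numbered up to 100670, 8286 were deposited. For RNAseq the methods of the study name RPKM, but the deposited log2 values give whole numbers when taken out of the log and were read here as scaled counts, with 0 written as the log2 of 0.001; whether any length scaling entered is unresolved; DESeq2 is named in the submitters' processing notes, and the counting tool is not given in the sources used here. These values summed to 29053834 to 31548188 normalized counts per library. A further 330 unnamed rows (at most 0.00926% of counts) were left out.

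Samples were grouped by their labels, and replicate libraries are called biological in the methods of the study. Regions were tested with limma 3.58.1 in R 4.3.3 (trended empirical Bayes, all 8 ATACseq libraries, log2(signal + 1)). In that fit the prior carried 468.71 degrees of freedom against 4 residual ones, so standard errors are mostly shared between regions. RNA was tested with limma over all 12 libraries, on the 13256 genes whose mean deposited value exceeded 3 in 1 or more groups, and called at adjusted p under 0.05 and 2-fold or more. Adjusted p-values are Benjamini-Hochberg over all regions or genes tested. The scripts were tested on simulated data. Listed genes are the authors' own, and 98.1% of the 6808 pairs with a GENCODE v44 position lay within 10 kb. Positions are GRCh38, and sequence and distances were read from hg38 and GENCODE v44.

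Same-numbered RNAseq libraries deviated together (correlations 0.178 to 0.631 over genes with a mean of 50 or more counts), so the numbers were taken to pair them. Libraries of different number correlated at -0.643 to 0.286, so the 2 ranges overlap. The main RNA fit holds no replicate term, and its standard errors and p-values leave the pairing out. The replicate block moved no RNA count by over 1.5 times.

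Named regions were the 8 largest called per direction with a listed gene, a higher-group mean of 40 or more and no overlap of libraries, the 3 largest without a gene, the 2 largest per list and direction, and the 3 on each side of the signal limit. Named genes were those listed there, the 5 largest RNA rises and falls at each class with at least 50 counts in 1 group, and genes with 3 or more calls. IRF1 was named after its values were seen, as a nearest gene. Some items that this rule chose are not reported here. The members, lists and alternatives were chosen with earlier results of these data known. No column of another series was used.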

Additional observations from a re-analysis of the deposited data

Results flagged for a closer look

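The ATRA change differed between *HK3*-null and Cas9 control cells, by limma's interaction test, in 37 kept regions, among them 4 of the named closing regions. At the gene-free region nearest to MAMLD1 the *HK3*-null change was less negative by 2.61 on the log2 scale (adjusted p = 0.00434). At the intronic region of PLEC with a Cas9 control difference of -1.97 it was less negative by 1.81 (adjusted p = 0.00962). At ERG it was more negative by 1.70 (interaction -1.70, adjusted p = 0.0435), and at the CTNNA2 region with a Cas9 control difference of -1.05 likewise (interaction -1.91, adjusted p = 0.00962). These regions were deposited for a genotype difference in ATRA, and the ATRA libraries of both genotypes enter the interaction. With 2 ATACseq and 3 RNAseq libraries a group, no library was screened for single outlying values.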

How the results depend on the processing

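Closing regions outnumbered opening ones (867 and 157) under every alternative tried. The opening and closing counts were 59 and 571 with a mean signal of 40 or more, which leaves 3032 regions, 839 and 949 under quantile normalization, 381 and 553 after median centring, and 276 and 1309 with unadjusted p under 0.05. Leaving out 1 Cas9 control library gave 52 to 142 opening and 318 to 1172 closing regions, and 155 to 192 and 264 to 335 (309 without ATRA replicate 2) when combined with centring, an addition made after seeing the data, like the next 2. Centring gave 663 opening regions in the 4 Cas9 control libraries alone, and with the replicate block 352 and 523. The median difference of -0.29 became 0.07 under quantile normalization, 0.03 after centring in all of these fits, and -0.54 to -0.05 without 1 library (0.02 to 0.04 when centred). ATACseq numbers did not pair the libraries (correlation -0.156 between Cas9 control ATRA and DMSO); the replicate block gave 139 opening and 733 closing regions, and crossing the Cas9 control DMSO numbers 167 and 905.

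The 37 interaction regions became 18 with the replicate block, 388 under quantile normalization, 110 after centring and 0 to 115 without 1 library. Genes at opening regions with higher RNA (21) numbered 11 at regions listing 1 gene and 49 at centred regions; those with lower RNA (1) numbered 2 under quantile normalization, 4 at unadjusted p, 4 at centred regions, 2 at the regions of the fit without ATACseq ATRA replicate 2, and 0 to 1 without 1 RNAseq library. At closing regions the 45 higher and 41 lower became 78 and 81 at unadjusted p, 24 and 17 at regions listing 1 gene, 29 and 27 at centred regions, and 16 and 17 without ATACseq ATRA replicate 2. Over all genes 907 higher and 369 lower became 1637 and 1145 at unadjusted p. RNA reversed sign for MMP14 and MYOF without DMSO replicate 1 and for UBR4 without ATRA replicate 1. Over libraries left out, MMP14 ranged from -1.58 to 0.64, MYOF from -2.66 to 0.47 and UBR4 from -0.36 to 0.01, and none of the 3 had passed. Where fewer samples or regions entered, the alternative itself changed the test; otherwise the cause was not tested.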
